A study of Homo sapiens with 21 samples.

Results

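BT-549 is an established human triple-negative breast cancer (TNBC) cell line that carries wild-type BRCA1. The comparison is between 2 forms of this line, both grown as mammospheres to serial passage 6 and neither exposed to doxycycline (DOX). One is the unmodified line, called untransduced here. The other is a line transduced with tet-MUC1shRNA and given 0.1% DMSO as the vehicle. The members are the 3 untransduced and the 3 vehicle-treated tet-MUC1shRNA libraries, 6 of the 21 libraries of the series, chosen by their labels. The study uses the vehicle-treated cultures as the reference for the same line after DOX, so the comparison asks how far that reference differs from the unmodified line, MUC1 and MYC included.

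Both groups carry the genotype label WT, and both were grown in serum-free MammoCult medium in ultra-low attachment plates. The tet-MUC1shRNA construct is a lentiviral pLKO-tet-puro vector, packaged in HEK293T cells, in which a short hairpin RNA against MUC1 is transcribed when DOX is added. Transduced cells were selected with puromycin. The sources used here do not state whether the line is a clone or a pool, and a line with a control shRNA was not analysed here. The untransduced cultures are labelled as controls with no shRNA, and the label does not say whether they received DMSO. The construct, the selection, the vehicle and the separate culture history of the line cannot be told apart in this comparison. Each group had 3 cultures, and nothing in the labels says that they came from separate thaws or days, so the p-values measure the spread between these cultures only.

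MUC1 encodes a membrane mucin that is cleaved into a shed N-terminal subunit and a transmembrane C-terminal subunit, MUC1-C, which signals to the nucleus in carcinoma cells. MYC is a basic helix-loop-helix transcription factor that pairs with MAX and drives genes of growth and ribosome production. Mammospheres are free-floating spheres that enrich for cells able to renew themselves without attachment. BT-549 cells are mesenchymal, with much vimentin and fibronectin and little E-cadherin or keratin.

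The markers listed for the line were checked in both groups. Summed over 6 mesenchymal markers (VIM, CDH2, FN1, SPARC, ZEB1 and CD44), the level was 8862 to 9524 CPM in the untransduced libraries and 11790 to 12520 in the vehicle libraries. CPM are counts relative to the library total, which was left unscaled for the marker sums and scaled for all CPM values of single genes. The 7 epithelial markers together reached 1.192 to 1.732 and 1.216 to 1.639 CPM, with KRT19 at 0 in every library. KRT5, a basal keratin outside that list, was at 21.5 to 24.9 CPM untransduced and at 0.787 to 1.56 CPM with vehicle. Sums over 5 leukocyte markers ran from 0.3568 to 0.6539 CPM untransduced and from 0.3404 to 0.7183 with vehicle, and LYZ was at 0. The 4 endothelial markers gave 5.866 to 6.987 against 3.978 to 4.22 CPM, the 5 luminal breast markers 22.77 to 23.22 against 22.74 to 26.18, and the 5 fibroblast genes, which this mesenchymal line also transcribes, 140.2 to 148.5 against 177.3 to 184.2. These sums hide members that went opposite ways. FN1, SPARC and ZEB1 rose while VIM, CD44 and CDH2 fell, and COL1A1 rose while COL3A1 fell. Among low genes of the epithelial list, KRT8 fell, from 0.427 to 0.56 CPM untransduced to 0 to 0.0749 CPM with vehicle, while ESRP1 and CLDN4 were higher, and in the luminal list GATA3 fell, from 0.227 to 0.324 CPM to 0 to 0.1 CPM, while ESR1 rose, from 0 to 0.0758 CPM to 0.262 to 0.45 CPM. In bulk libraries, a change in the number of cells of a kind and a change in RNA per cell cannot be told apart.

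The vehicle libraries stood apart in several RNA classes before any protein-coding gene was considered. RN7SKP80, a pseudogene copy of the 7SK small nuclear RNA, took 0.188% to 0.269% of the counts of the untransduced libraries and 0.000314% to 0.000428% with vehicle. The DOX-treated libraries of the same line had 0.000335% to 0.000425%, whereas vehicle-treated tet-MYCshRNA libraries, from another line transduced in the same way, had 0.129% to 0.238%. Mitochondrial ribosomal RNA took 0.0473% to 0.0686% untransduced and 0.00246% to 0.00449% with vehicle, and it was as low as 0.00104% to 0.00201% in vehicle-treated tet-MYCshRNA libraries. Processed pseudogenes, intronless copies of messenger RNAs, took 0.481% to 0.627% of counts untransduced and 0.954% to 1.03% with vehicle. The libraries were prepared with a kit that selects RNAs with poly(A) tails, which ribosomal and 7SK RNAs mostly lack. The part of library preparation or counting in these class differences was not tested, and it touches each result on noncoding RNAs, histones and gene copies given further on. Total counts were 49659124 to 67272436 in the untransduced and 41132120 to 53548353 in the vehicle libraries.

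**Figure D1:**
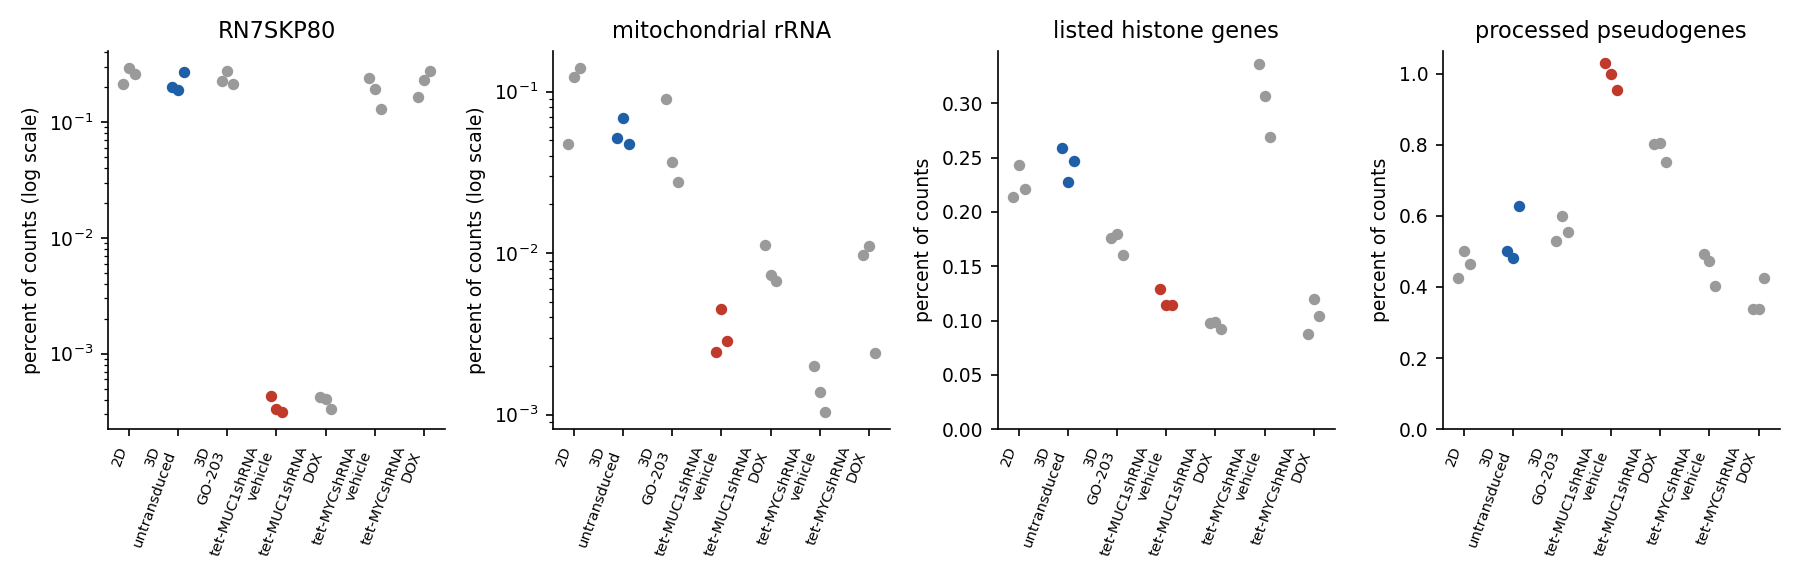
Share of the counts of each library taken by RN7SKP80, mitochondrial ribosomal RNA, the listed histone genes and processed pseudogenes (percent of counts; the first pair of panels has log axes), with 1 point for each of 3 libraries in 7 conditions. The vehicle tet-MUC1shRNA libraries (red) hold 0.000314% to 0.000428% RN7SKP80 and the untransduced libraries (blue) 0.188% to 0.269%.

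MUC1 was lower in the transduced line although no DOX was given. MUC1 (ENSG00000185499.16) lies on the minus strand of chromosome 1 in GRCh38, from 155185824 to 155192916. It was at 209, 215 and 173 CPM in the untransduced libraries and at 97, 79.8 and 82.5 CPM in the vehicle libraries. The 2 groups did not overlap, and the lowest untransduced library lay well above the highest vehicle library. The difference was 2.3-fold, a log2 fold change (vehicle minus untransduced) of -1.20 with a standard error of 0.08. The adjusted p was 2.48e-09 (quasi-likelihood test of edgeR, with Benjamini-Hochberg adjustment over all genes tested). The 10 tested genes nearest to MUC1 on chromosome 1 had log2 fold changes between -0.59 and 0.4.

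MYC was lower as well, by about as much. MYC (ENSG00000136997.21), on the plus strand of chromosome 8 from 127735434 to 127742951, was at 567, 537 and 571 CPM in the untransduced libraries and at 231, 245 and 227 CPM with vehicle. Replicates of a group lay close together, and no vehicle library came near an untransduced one. The difference was 2.38-fold, with a log2 fold change of -1.25, a standard error of 0.05 and an adjusted p of 2.55e-12 in the same test.

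Scaled over all 21 libraries, the vehicle cultures lay between the other conditions in MUC1 and among the lower ones in MYC. MUC1 averaged 207 CPM ± 21.8 (SD, n = 3) in untransduced mammospheres and 90.3 CPM ± 9.45 (SD, n = 3) in the vehicle group. Untransduced mammospheres treated with GO-203, a peptide inhibitor of MUC1-C, had the highest level, 255 CPM ± 10.1 (SD, n = 3). Next in order after the untransduced libraries, which reached from 182 to 222 CPM, were DOX-treated tet-MYCshRNA mammospheres, at 139 to 194 CPM, and these 2 groups overlapped. Below the vehicle group came vehicle-treated tet-MYCshRNA mammospheres at 69 CPM ± 3.82 (SD, n = 3), cells grown as 2D monolayers at 54 CPM ± 2.2 (SD, n = 3), and the DOX-treated tet-MUC1shRNA mammospheres at 21.4 CPM ± 1.81 (SD, n = 3). Both lines that carried an uninduced shRNA thus had less MUC1 than the unmodified line, and none of their libraries overlapped its range. The tet-MYCshRNA mammospheres were at passage 8, so line and passage differ together in that case.

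The order was different for MYC. Untransduced and GO-203-treated mammospheres, at 581 CPM ± 25 and 564 CPM ± 33.3 (SD, n = 3 each), had the highest and overlapping levels. Vehicle-treated tet-MYCshRNA mammospheres had 414 CPM ± 26.7 (SD, n = 3), and the vehicle-treated tet-MUC1shRNA libraries, at 241, 255 and 239 CPM, lay below all of these. The DOX-treated tet-MUC1shRNA libraries averaged 286 CPM ± 11.6 (SD, n = 3) and the DOX-treated tet-MYCshRNA libraries spanned 244 to 297 CPM, which overlapped both tet-MUC1shRNA groups. Only 2D cells, at 85.4 CPM ± 6.29 (SD, n = 3), had less MYC than the vehicle group among the 7 conditions.

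**Figure D2:**
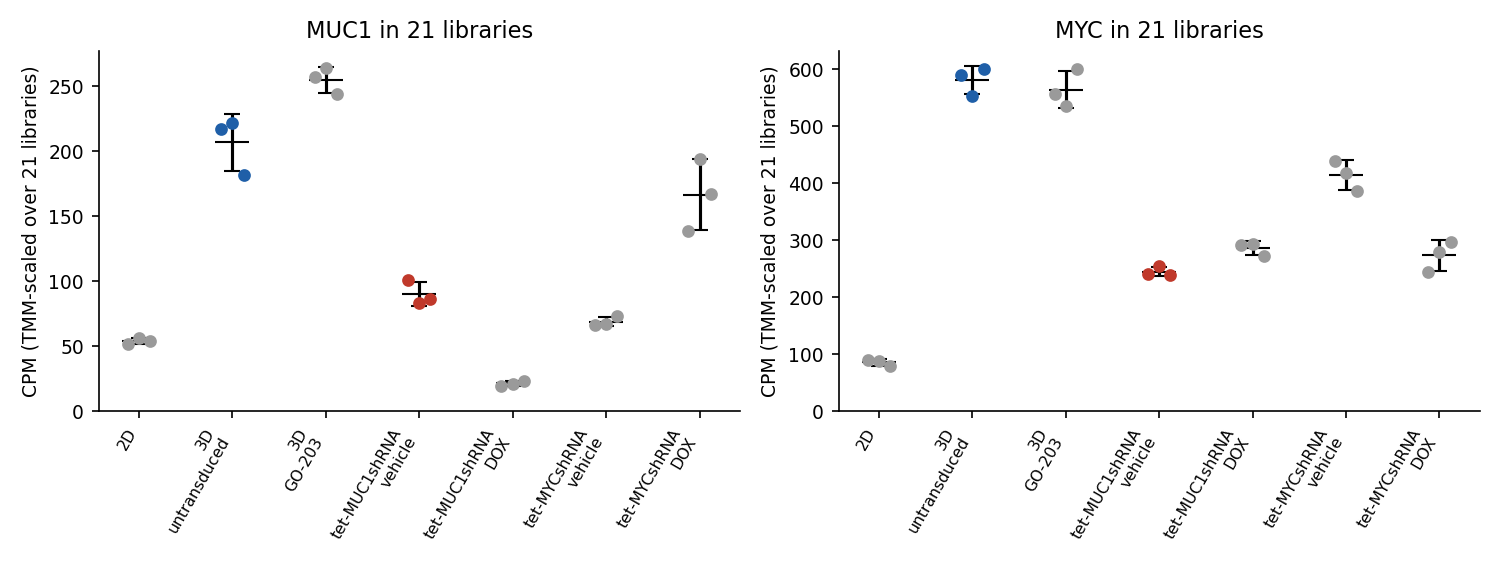
MUC1 and MYC in CPM, scaled over 21 libraries, for 7 conditions with 3 libraries each; points are libraries, black bars the mean and SD. In the vehicle tet-MUC1shRNA libraries (red) MUC1 lies at 83.2 to 101 CPM and MYC at 239 to 255 CPM, below the untransduced libraries (blue) at 182 to 222 and 553 to 601 CPM.

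The study's other contrasts, each fitted on its own 6 libraries, give a scale for these differences. DOX against vehicle in the tet-MUC1shRNA line gave a log2 fold change of -2.06 for MUC1 and 0.25 for MYC. Vehicle-treated tet-MYCshRNA against untransduced mammospheres gave -1.60 for MUC1 and -0.50 for MYC. Untransduced mammospheres against 2D cells gave 1.93 for MUC1 and 2.76 for MYC. These contrasts share the vehicle or the untransduced libraries with the comparison described here, so they are not independent of it.

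Across the transcriptome the 2 forms of the line were clearly separate. The root mean square difference in log2 CPM between libraries was 0.3316 to 0.3533 among the untransduced, 0.2986 to 0.3379 among the vehicle and 0.8082 to 0.8382 between the groups. Of 18409 genes tested, 1578 (8.57%) were called, meaning an adjusted p below 0.1 and a log2 fold change beyond 1.5 in either direction. The study writes the fold threshold on the log2 scale in one place and without it in another, and a linear fold of 1.5 gave 5995 genes. Of the 1578 called, 833 were higher in the vehicle libraries (4.52% of genes tested) and 745 lower (4.05%). By adjusted p alone, 5859 genes were higher (31.8%) and 5657 lower (30.7%), so most genes passed the test by small amounts. MUC1 and MYC passed the adjusted p but not the fold threshold, so neither is among the 1578. The median absolute log2 fold change was 0.429, and 56% of genes had an absolute value below 0.5. For scale, the same rule called 1695 genes for DOX against vehicle in this line and 140 for GO-203 against untransduced mammospheres. It called 1160 for vehicle-treated tet-MYCshRNA against untransduced mammospheres and 3107 for the latter against 2D cells.

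The kind of gene mattered to these counts. Among protein-coding genes, 802 of 12962 were called (6.19%), 480 higher and 322 lower, and 794 of the 802 had groups that did not overlap, as did 70.4% of all protein-coding genes tested. A mean of at least 1 CPM in both groups was found for 348 of the 802. A further 281 were higher in the vehicle libraries from an untransduced mean below 1 CPM, and 173 fell to a vehicle mean below 1 CPM. Processed pseudogenes were called far more often, 411 of 1579 (26%), with 137 higher and 274 lower, whereas the same class gave 6.3% for DOX against vehicle and 3.42% for vehicle-treated tet-MYCshRNA against untransduced mammospheres. Long noncoding RNAs gave 213 of 2836 (7.51%).

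**Figure D3:**
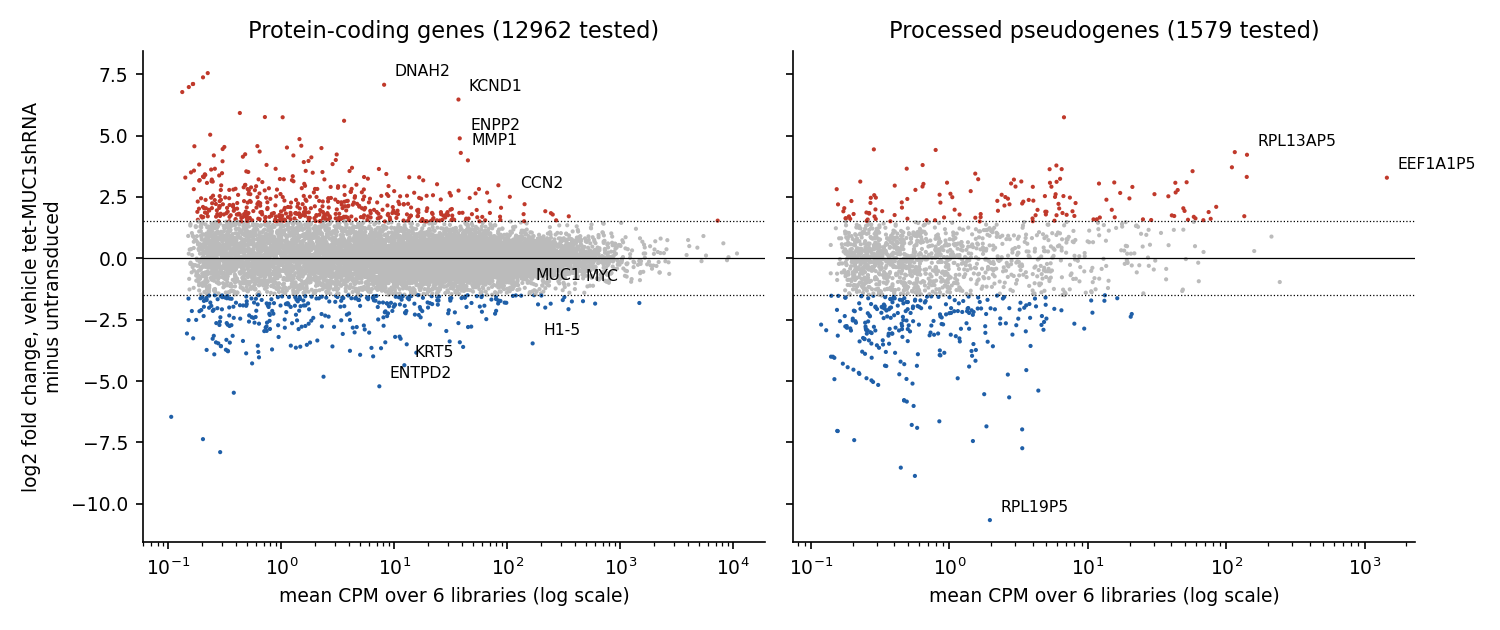
Log2 fold change (vehicle tet-MUC1shRNA minus untransduced) against mean CPM over 6 libraries (log axis) for 12962 protein-coding genes and 1579 processed pseudogenes; red and blue points are called higher and lower, dotted lines mark 1.5 in each direction. Of the protein-coding genes 6.19% are called, and of the pseudogenes 26%.

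The largest rise was that of an unnamed long noncoding RNA, ENSG00000285831, on the minus strand of chromosome 5 from 53297872 to 53326565. It had 0 to 2 counts in the untransduced libraries and 1675 to 2497 with vehicle, at least 790-fold higher against a floor of 3 counts per library. It had 193 to 386 counts after DOX in the same line and 0 to 6 in the libraries of every other condition. Of its 10 nearest tested neighbours, with log2 fold changes from -0.942 to 1.887, the highest was FST, the activin antagonist follistatin, at a mean of 2.95 CPM untransduced and 11 CPM with vehicle. NRG3, a neuregulin ligand of the ERBB4 receptor, was the only other gene at 3 counts or fewer in each untransduced library (0 to 3) and at 50 or more in each vehicle library (56 to 81). FST and NRG3 lie outside the rule for naming genes and were picked out after their values were seen.

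Among called protein-coding genes with a mean normalized count of at least 100 and groups that did not overlap, DNAH2 and KCND1 had the largest rises. DNAH2, an axonemal dynein heavy chain on chromosome 17 from 7717744 to 7833742, was at 0.2, 0.0948 and 0.0736 CPM untransduced and at 17.2, 14.5 and 16.5 CPM with vehicle (log2 fold change 7.07, standard error 0.21, adjusted p = 1.28e-13). KCND1, a voltage-gated potassium channel on chromosome X from 48961378 to 48971844, was at 0.999, 0.796 and 0.706 CPM against 82.5, 70.7 and 65.8 CPM (6.47, standard error 0.12, adjusted p = 8.37e-16). Groups that did not overlap were a condition of the selection, so that separation adds no support. Each gene stood well above its chromosomal neighbours. The 10 nearest tested genes had log2 fold changes of -0.162 to 1.374 for DNAH2 and -0.887 to 0.975 for KCND1. HS3ST1, a heparan sulfate sulfotransferase, was higher by 4.49 on the log2 scale. In vehicle-treated tet-MYCshRNA against untransduced mammospheres KCND1 had 0.14 and HS3ST1 0.55, and DNAH2 was too low to test. With DOX the 3 genes fell in the tet-MUC1shRNA line, by 4.30 for KCND1, 2.65 for HS3ST1 and 2.20 for DNAH2 on the log2 scale.

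Several genes of secreted and membrane proteins were among the other large rises. ENPP2 encodes autotaxin, the secreted enzyme that makes lysophosphatidic acid, and it was at 2.32, 2.27 and 2.78 CPM untransduced and 81.1, 68.4 and 70.5 CPM with vehicle (log2 fold change 4.89, standard error 0.10, adjusted p = 1.09e-15). MMP1, the interstitial collagenase, was at 4.42, 3.09 and 3.78 CPM against 74.3, 66.6 and 80.2 CPM (4.29, standard error 0.11, adjusted p = 1.62e-14). CHI3L2, a secreted chitinase-like protein, was at 5.32, 5.12 and 5.46 CPM against 82.6, 89.2 and 80.9 CPM (3.99, standard error 0.07, adjusted p = 5.78e-16). That no library of one group reached the range of the other was a condition of selecting these 3 genes. TMEM200A, a membrane protein (5.60), TCEAL9 (4.01), RNF144B, a ubiquitin ligase (3.84), ITGB3, the integrin beta 3 subunit (3.69), and MOXD1 (3.64) were also among the 12 largest protein-coding rises. For ITGB3, 33.18% of exonic bases overlap another gene, so its reads could not all be told apart. In the tet-MYCshRNA line without DOX, against the same untransduced libraries, ENPP2 had 3.79, MMP1 2.78, CHI3L2 2.48, TMEM200A 5.97 and TCEAL9 2.94.

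By the same limits, the largest protein-coding falls included an ectonucleotidase, a basal keratin and a growth factor. ENTPD2, which breaks down extracellular ATP, was at 15.6, 14 and 13.4 CPM untransduced and at 0.3, 0.361 and 0.468 CPM with vehicle (log2 fold change -5.21, standard error 0.17, adjusted p = 2.81e-13). KRT5, the basal keratin 5, was at 24.9, 21.5 and 23.7 CPM against 1.12, 1.56 and 0.787 CPM (-4.35, standard error 0.16, adjusted p = 1.24e-12). NANOS1, an RNA-binding repressor of translation, was at 77.7, 74.2 and 73.3 CPM against 6.52, 6.01 and 5.94 CPM (-3.61, standard error 0.07, adjusted p = 8.48e-16). AREG, the EGF receptor ligand amphiregulin, was at 24, 22.2 and 24.7 CPM against 2.12, 2.21 and 1.93 CPM (-3.50, standard error 0.10, adjusted p = 1.28e-13). Groups that did not overlap were likewise a condition of selecting these 4 genes. UBE2QL1 (-4.82), the endothelial receptor gene PLXDC1 (-3.93), CAVIN2, a caveolar coat protein (-3.85), DTX4, a Notch pathway ubiquitin ligase (-3.77), CA8 (-3.66), the semaphorin SEMA3D (-3.65), the proteoglycan CSPG4 (-3.59) and the linker histone H1-5 (-3.47) completed the 12.

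The vehicle-treated tet-MYCshRNA line, set against the same untransduced libraries and so not independent, gave its own values for these genes. ENTPD2 had -5.28 there, UBE2QL1 -4.62, KRT5 -2.25, PLXDC1 -2.52, CAVIN2 -4.10, DTX4 -4.18, CA8 -6.85, SEMA3D -3.61, NANOS1 -3.93, CSPG4 -3.95, AREG -2.93 and H1-5 0.41. With DOX, KRT5 and DTX4 had 3.70 and 4.61 against vehicle in the tet-MUC1shRNA line, whereas CAVIN2 had -2.13.

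**Figure D4:**
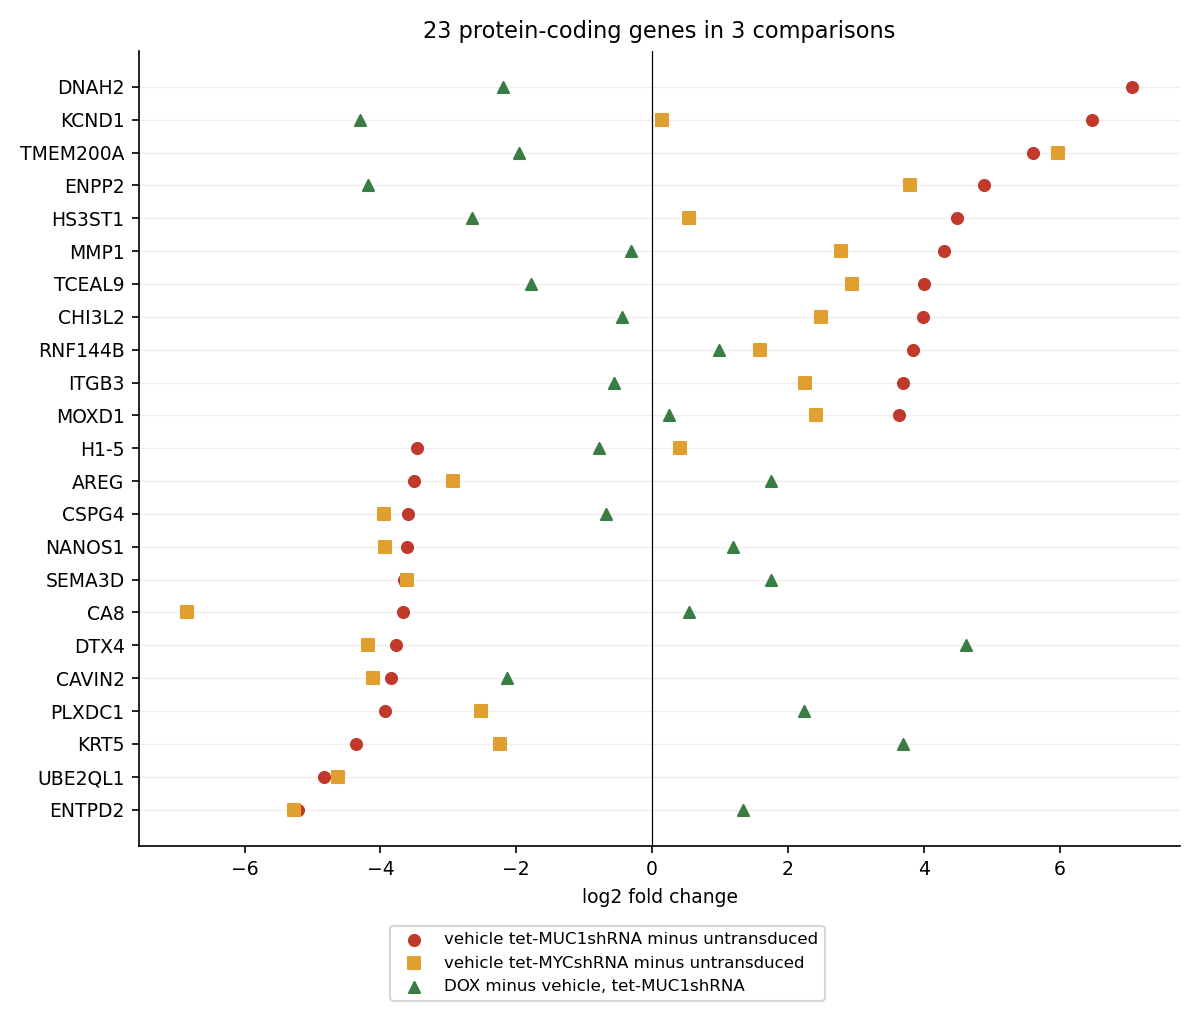
Log2 fold changes of 11 of the 12 largest protein-coding rises and of the 12 largest falls, 1 row per gene, in this comparison (red circles), in vehicle tet-MYCshRNA minus untransduced mammospheres (yellow squares) and in DOX minus vehicle of the tet-MUC1shRNA line (green triangles). The comparisons share libraries; KCND1 has 6.47, 0.14 and -4.30, and ENPP2 has 4.89, 3.79 and -4.18.

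Genes of the cell cycle were lower in the vehicle libraries, the replication genes most uniformly. Of 23 genes of DNA replication, 21 fell and 1 rose by adjusted p, against 30.7% and 31.8% of all genes, and the list's median log2 fold change was -0.584 beside 0.02 over all genes. The same shares of all genes, and 4.52% called higher and 4.05% called lower, stand as the background of each list that follows. PCNA, the sliding clamp of the replicative polymerases, was at 183, 191 and 197 CPM untransduced and 102, 104 and 108 CPM with vehicle (-0.86, standard error 0.05, adjusted p = 4.71e-10). MCM3, a subunit of the replicative helicase, was at 211, 202 and 211 CPM against 128, 121 and 120 CPM (-0.76, adjusted p = 1.34e-09). CDC6, which loads the helicase at origins, was at 53.4, 56.4 and 57.2 CPM against 29.2, 29 and 30 CPM (-0.92, adjusted p = 1.01e-09). In none of these 3 genes did the groups overlap, nor did they in 70.4% of all protein-coding genes tested. GINS2, a component of the active helicase, was the only one called, at 11.7, 11.2 and 14 CPM against 3.77, 3.61 and 3.26 CPM (-1.80, adjusted p = 2.3e-09). CCNE1, the G1/S cyclin E1, rose by 0.24, and CDT1, the partner of CDC6, had 0.05 and an adjusted p of 0.632.

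Replication genes are known targets of E2F transcription factors, so their promoters were searched for the letters TTTCCCGC, TTTGGCGC, TTTCGCGC and TTTGCCGC on both strands. In the RefSeq promoter table for GRCh38.p14, which gives the 250 bases before and 50 after each gene's start, 14 of the 20 replication genes present held a match (70%). Of all tested genes in that table, 6.5% held one, as did 3.99% of all its genes, 11.1% of mitosis genes and 20% of listed histone genes. The 200 bases before the start are shown for GINS2 (chr16:85688955-85689154, minus strand), MCM3 (chr6:52284743-52284942, minus strand) and PCNA (chr20:5126623-5126822, minus strand), as the called member and 2 of those with the smallest p. They read 5′ to 3′ in the direction of the gene, with the match in capitals, which for GINS2 and PCNA is the reverse complement of TTTCCCGC:
GINS2: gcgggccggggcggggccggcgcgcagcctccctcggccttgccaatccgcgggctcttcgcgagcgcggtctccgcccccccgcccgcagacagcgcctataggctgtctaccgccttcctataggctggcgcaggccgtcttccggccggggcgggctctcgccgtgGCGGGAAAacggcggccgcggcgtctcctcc
MCM3: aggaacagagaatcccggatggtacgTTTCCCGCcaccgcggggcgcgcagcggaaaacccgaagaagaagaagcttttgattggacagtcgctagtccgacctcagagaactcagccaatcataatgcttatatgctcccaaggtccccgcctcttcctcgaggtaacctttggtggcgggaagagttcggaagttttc
PCNA: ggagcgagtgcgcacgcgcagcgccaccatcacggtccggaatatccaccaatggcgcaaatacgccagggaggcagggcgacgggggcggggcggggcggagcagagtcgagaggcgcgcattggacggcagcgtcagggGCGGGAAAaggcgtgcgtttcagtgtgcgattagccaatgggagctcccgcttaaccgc
A second match in MCM3, TTTCGCGC, began 4 bases before the start and runs past the edge of the window shown. A match describes the letters in the window only, and whether E2F factors are bound there was not measured. Matches were not compared with the size of the fall, and CDT1, which did not pass the adjusted p, held a match too.

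Genes of mitosis fell less uniformly. Of 23, 16 fell and 4 rose, with a median of -0.314 and no member called. MKI67, the proliferation antigen Ki-67, was at 509, 574 and 459 CPM untransduced and 192, 202 and 190 CPM with vehicle (log2 fold change -1.40, standard error 0.07, adjusted p = 3.13e-11). CENPF and CENPE, both kinetochore proteins, fell by 1.30 and 1.11, and TTK, a checkpoint kinase, fell by 0.98. UBE2C, which ubiquitinates mitotic cyclins, rose by 0.41, AURKB, the kinase of the chromosomal passenger complex, by 0.34 and the cyclin gene CCNA2 by 0.25. In vehicle-treated tet-MYCshRNA against untransduced mammospheres, MKI67 had 0.68, CENPF 0.51, CENPE 0.44 and TTK 0.41. PLK1, the polo-like mitotic kinase, had -0.07 with an adjusted p of 0.39.

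Replication-dependent histone genes, which are transcribed in S phase and whose messenger RNAs mostly end in a stem-loop in place of a poly(A) tail, were lower too. Of 21 tested, 16 fell and none rose, with a median of -0.632, and 6 of the 21 were called, all lower, against 4.05% of all genes. The 3 largest falls of the list were of linker histones. H1-5 was at 315, 286 and 321 CPM untransduced and 30, 28.5 and 25 CPM with vehicle (-3.47, standard error 0.07, adjusted p = 1.42e-15). H1-3 was at 113, 103 and 115 CPM against 19.8, 20.3 and 19.3 CPM (-2.48, adjusted p = 3.58e-14), and H1-2 at 365, 329 and 347 CPM against 96.3, 83.9 and 78.9 CPM (-2.01, adjusted p = 5.93e-13). H1-4 was at 177 to 210 CPM against 65.5 to 72.5 CPM (-1.52, adjusted p = 1.16e-11). Each vehicle library lay below each untransduced one in all 4 genes, while 70.4% of all protein-coding genes tested had groups that did not overlap. H2AC11 (-1.68), an H2A gene, and H4C5 (-1.61), an H4 gene, were the other members called. The calls of H1-4 and H4C5 were close to the threshold, with -1.487 for H1-4 without the second vehicle library and -1.46 for H4C5 without the third. In the vehicle-treated tet-MYCshRNA line the H1 genes had, against the same untransduced libraries, log2 fold changes of 0.41 for H1-5, 0.31 for H1-3, -0.28 for H1-2 and 0.01 for H1-4. The listed histones took 0.228% to 0.259% of counts untransduced, 0.114% to 0.129% with vehicle and 0.269% to 0.336% in vehicle-treated tet-MYCshRNA libraries. In the vehicle libraries this share was low together with that of ribosomal RNA, and the part of library preparation was not tested. Several histone genes have near-identical copies, so values of single genes are uncertain.

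The 4 H1 genes share a promoter element, the H1 box (AAACACA), which the search found in 4 of 4 H1 promoters (100%) and in 0 of 16 core histone promoters of the same source. Of tested genes with a promoter there 4.74% held it, and of all genes there 6.94%, on either strand. The 100 bases from 150 to 51 before the start are shown for H1-2 (chr6:26056521-26056620, minus strand), H1-3 (chr6:26235038-26235137, minus strand), H1-4 (chr6:26156179-26156278, plus strand) and H1-5 (chr6:27867639-27867738, minus strand), since these genes fell together. The box stands in capitals:
H1-2: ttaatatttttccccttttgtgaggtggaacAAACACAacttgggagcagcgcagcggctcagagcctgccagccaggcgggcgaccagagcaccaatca
H1-3: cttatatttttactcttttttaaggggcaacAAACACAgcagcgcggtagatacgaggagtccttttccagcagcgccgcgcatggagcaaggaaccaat
H1-4: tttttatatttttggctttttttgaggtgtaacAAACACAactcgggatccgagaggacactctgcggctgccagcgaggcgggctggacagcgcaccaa
H1-5: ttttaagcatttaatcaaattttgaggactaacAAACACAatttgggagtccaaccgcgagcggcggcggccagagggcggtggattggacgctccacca
The match shown began 119 bases before the start in H1-2 and H1-3 and 117 bases before it in H1-4 and H1-5. Outside the windows shown, H1-2 held a second match 242 bases before the start on the other strand, and H1-5 one 226 bases before it on the same strand.

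**Figure D5:**
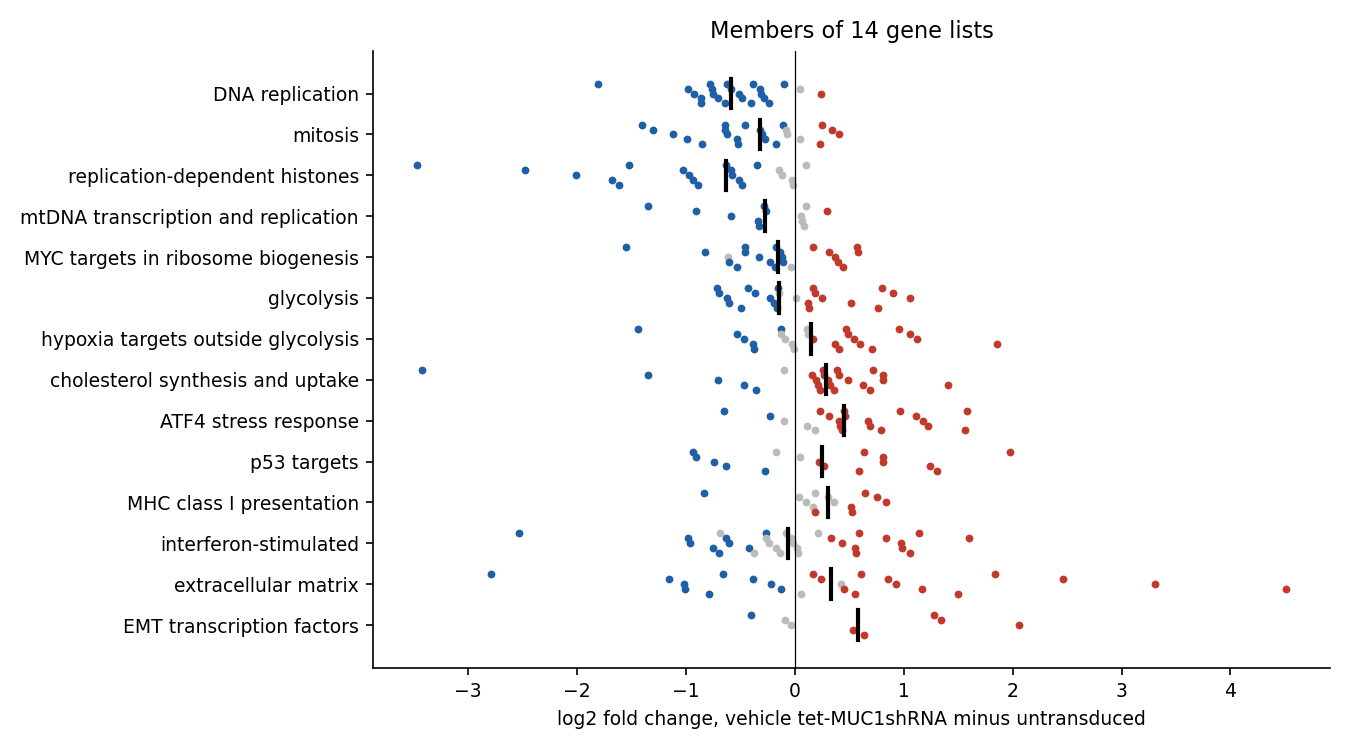
Log2 fold change (vehicle tet-MUC1shRNA minus untransduced) of each tested member of 14 gene lists; red and blue points passed an adjusted p of 0.1 as higher or lower, grey points did not, and black bars are list medians. The medians are -0.584 for DNA replication, -0.632 for replication-dependent histones, 0.453 for the ATF4 list and 0.586 for the EMT transcription factors.

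Known targets that MYC activates moved both ways. The list of 22 is mostly of ribosome biogenesis, with the metabolic enzymes LDHA, ODC1 and CAD beside them, and LDHA counts under glycolysis too. Of the 22, 13 fell and 7 rose, with a median of -0.149. NOP56, a core protein of box C/D small nucleolar ribonucleoproteins, was at 125, 116 and 115 CPM untransduced and 38.9, 42.6 and 40.1 CPM with vehicle (log2 fold change -1.55, standard error 0.06, adjusted p = 3.37e-12), and it was the only member called. NCL, the nucleolar protein nucleolin, was at 795, 778 and 803 CPM against 455, 438 and 451 CPM (-0.82, adjusted p = 9.59e-11), and NOP58, the partner of NOP56, fell by 0.61. NME1, a nucleoside diphosphate kinase, and RRP9, a processing factor of the small subunit, rose by 0.58 and 0.57. The E-box CACGTG, bound by MYC and MAX and by related factors, was found in 10 of 18 promoters of the list (55.6%), in 12.2% of those of tested genes and in 8.77% of all those in the table. Within the network of MYC partners and antagonists, 4 of 11 rose and 4 fell, MYC included, with a median of 0.036. MAX, the obligate partner, fell by 0.48, whereas the glucose-sensing MLXIP and the antagonist MXI1 rose by 0.77 and 0.49.

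Mesenchymal and matrix genes moved in both directions. Of 8 transcription factors of the epithelial-mesenchymal transition (EMT), 5 rose and 1 fell, with a median of 0.586. SNAI2, which encodes the repressor SLUG, was at 34.8, 31.4 and 36 CPM untransduced and 152, 136 and 137 CPM with vehicle (log2 fold change 2.06, standard error 0.07, adjusted p = 3.69e-13). PRRX1 and FOXC2, both mesenchymal regulators, rose by 1.34 and 1.28, and ZEB1, a repressor of E-cadherin, by 0.63. By contrast CDH2, the mesenchymal N-cadherin, was at 50.1, 49.9 and 47.8 CPM against 12.3, 11 and 10.8 CPM (-2.12, standard error 0.07, adjusted p = 5.23e-13). Of the other mesenchymal markers, FN1 (fibronectin) rose by 0.61 and VIM (vimentin) fell by 0.24. After DOX, SNAI2 had -0.76 and CDH2 2.67 against vehicle in the same line.

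Among 24 genes of the extracellular matrix 13 rose and 9 fell, with a median of 0.336. Of these, 5 were called higher and 1 lower, against 4.52% and 4.05% of all genes. The median was 0.206 without the third untransduced library, 0.214 with the replicate block and 0.166 with a filter of 10 counts in every library, which left 22 of the 24 genes. COL8A1 (4.51), the proteoglycan DCN (3.31), POSTN or periostin (2.46) and TNC or tenascin-C (1.84) were called higher, as was the type I collagen gene COL1A1, at 59.2, 55.7 and 52.4 CPM against 158, 158 and 157 CPM (2.83-fold, adjusted p = 2.11e-12). COL1A1 lay at the fold threshold itself, and its call was lost with DESeq2, RLE factors or library size alone (1.467 to 1.486 on the log2 scale), with either other filter, and without untransduced library 2 or 3 (1.464 and 1.445). COL3A1, the type III collagen chain, was at 84.8, 79.4 and 86.8 CPM untransduced and 12.5, 10.8 and 13.1 CPM with vehicle (-2.78, standard error 0.08, adjusted p = 5.54e-14). The basement membrane collagens COL4A2 and COL4A1 fell, from means of 161 to 80.4 CPM and of 119 to 75 CPM. COL8A1, DCN and POSTN were at most 1.21 CPM in every untransduced library, so their folds rest on few counts there. Among 15 contractile and YAP target genes 6 rose and 6 fell with a median of 0. CCN2, the matricellular factor CTGF and a known YAP target, was at 31.1, 30.6 and 32.8 CPM against 208, 164 and 165 CPM (2.50, standard error 0.08, adjusted p = 4.36e-13), while F3 (tissue factor) fell by 0.82.

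Markers used for stem-like cells went both ways. Of 12 tested, 5 rose and 6 fell, with a median of -0.107, and 2 were called in each direction. The median was -0.172 without the third untransduced and -0.067 without the second vehicle library. It was -0.211 when genes with no value in a group were left out, which left 11. ITGA6, the integrin alpha 6 subunit, was at 148, 155 and 154 CPM untransduced and 42.7, 44.2 and 43.3 CPM with vehicle (log2 fold change -1.81, standard error 0.05, adjusted p = 1.33e-13). CD44, the hyaluronan receptor, fell by 0.55 and CD24 by 1.21, whereas ALDH1A3, the retinal dehydrogenase common in breast cancer stem-like cells, rose by 0.56 and ALDH2 by 1.38. The called rises were of genes barely counted. ALDH1A1, another retinal dehydrogenase, had no value in the untransduced libraries, which was read as 0. With vehicle ALDH1A1 was at 0.25, 0.361 and 0.375 CPM (at least 6.13-fold higher, adjusted p = 3.92e-05), and its call rests on that reading. LGR5, a Wnt pathway receptor, was at 0.04, 0.152 and 0.0883 CPM against 0.3, 0.384 and 0.412 CPM (1.95, adjusted p = 0.00605). POU5F1, or OCT4, had 1.44, 1.33 and 0.662 CPM against 0.05, 0.113 and 0.112 CPM, and it has several near-identical pseudogenes. Of 6 ABC transporters 4 rose and 2 fell, among them the cholesterol exporter ABCA1, at 3.04, 2.56 and 2.22 CPM against 14.8, 15.7 and 14.7 CPM (2.54, adjusted p = 3.6e-11).

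Metabolic lists showed rises in amino acid stress and sterol genes. Of 21 genes activated by ATF4, the transcription factor of the integrated stress response, 16 rose and 2 fell, with a median of 0.453. PHGDH, the first enzyme of serine synthesis, was at 23.5, 20.8 and 21.4 CPM untransduced and 70.8, 65.6 and 60.5 CPM with vehicle (1.58, standard error 0.07, adjusted p = 1.79e-11). SESN2, an inhibitor of mTORC1, was at 46.7, 44.3 and 40.7 CPM against 139, 139 and 111 CPM (1.56, standard error 0.08, adjusted p = 1.01e-10). Both genes were above the untransduced range in every vehicle library, and 70.4% of protein-coding genes tested likewise had groups that did not overlap. SESN2 had 1.498 without the third untransduced library, just short of a call. The pseudokinase gene TRIB3 rose by 1.18 and CEBPB by 0.79, while ATF4 itself had -0.10 with an adjusted p of 0.193. SESN2 and TRIB3 had -0.77 each in vehicle-treated tet-MYCshRNA against untransduced mammospheres.

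Of 24 genes of cholesterol synthesis and uptake, 18 rose and 5 fell, with a median of 0.288. MSMO1, a sterol C4-demethylating oxidase, was at 378, 383 and 408 CPM against 1060, 1060 and 986 CPM (log2 fold change 1.41, standard error 0.05, adjusted p = 7.76e-13). INSIG1, which retains the SREBP complex in the endoplasmic reticulum, rose by 0.82, SC5D by 0.81 and HMGCS1 by 0.62. LSS, which closes the sterol rings, fell by 0.46. The tet-MYCshRNA vehicle libraries had values of -0.999 for MSMO1 and -0.55 for INSIG1 against the same untransduced libraries.

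Glycolysis, the pathway at the centre of the study, had rises and falls in like number. Of 23 genes 10 rose and 11 fell, with a median of -0.143 and none called. The median was -0.218, -0.055 and -0.094 without vehicle library 1, 2 and 3 in turn. GAPDH, the glyceraldehyde-phosphate dehydrogenase, was at 3990, 3660 and 3720 CPM untransduced and 8120, 6750 and 6440 CPM with vehicle (0.91, standard error 0.07, adjusted p = 8.09e-09). ENO2, a neuronal-type enolase, averaged 104 CPM against 216 CPM (1.06, standard error 0.06, adjusted p = 2.34e-10). The last kinase of the pathway, PKM, fell by 0.71, PFKL by 0.69 and PDK1, which inhibits pyruvate dehydrogenase, by 0.62. SLC2A1, the glucose transporter GLUT1, was at 144, 140 and 139 CPM against 169, 120 and 136 CPM (0.01, adjusted p = 0.923), so the untransduced range lay within that of the vehicle libraries. HK2, a hexokinase, was at 348, 348 and 331 CPM against 366, 273 and 291 CPM (-0.14, adjusted p = 0.134). Of 24 hypoxia targets outside glycolysis 12 rose and 6 fell, with a median of 0.147 (0.091 without the first and 0.229 without the second vehicle library), and CA12, a membrane carbonic anhydrase, was called at 1.85.

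Mitochondrial genes of both genomes moved both ways. Of 13 messenger RNAs encoded in mitochondrial DNA (mtDNA), 5 rose and 6 fell, with a median of -0.064 (-0.155 without the third untransduced library and -0.012 without the third vehicle library). MT-ND3, a subunit of complex I, was at 294, 306 and 286 CPM untransduced and 536, 559 and 495 CPM with vehicle (0.84, standard error 0.05, adjusted p = 6.14e-10). MT-ND6, the complex I subunit encoded on the other strand, was at 413, 462 and 379 CPM against 280, 273 and 249 CPM (-0.64, adjusted p = 2.62e-07). Of the 12 nuclear genes of mtDNA transcription and replication 7 fell and 1 rose, with a median of -0.274. SSBP1, the mitochondrial single-stranded DNA binding protein, was at 143, 144 and 165 CPM against 60, 57.5 and 60.4 CPM (-1.34, standard error 0.06, adjusted p = 2.97e-11), and TFAM, which packages and transcribes mtDNA, fell by 0.58. Nuclear genes of the electron transport chain had 11 rises and 9 falls among 26 with a median of 0.022.

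Genes of stress and immunity were mixed. Of 16 p53 targets 9 rose and 5 fell, with a median of 0.247. GDF15, a stress cytokine, was at 7.14, 6.69 and 6 CPM untransduced and 27.8, 28.7 and 21.4 CPM with vehicle (1.98, standard error 0.11, adjusted p = 2.5e-10), and CDKN1A, the cyclin-dependent kinase inhibitor p21, rose by 0.81. Of 18 NF-kB targets and cytokines 8 rose and 5 fell, with a median of 0.222. CSF3 (G-CSF) rose by 1.21 and IL6 by 1.12, whereas NFKB1, a subunit of NF-kB, fell by 0.40. Of 13 genes of MHC class I presentation 6 rose and 1 fell, with a median of 0.304 that was 0.154 without the first untransduced library. HLA-E, which presents peptides to natural killer cells, rose by 0.84. Interferon-stimulated genes gave 11 rises (34.4%) and 9 falls (28.1%) among 32 and a median of -0.059, near the shares of all genes. SAMD9, an antiviral factor, was called lower at -2.53, and HERC6 was called higher at 1.60 from a level of at most 0.265 CPM, a call lost without untransduced library 1, untransduced library 3 or vehicle library 3 (1.409 to 1.458). The other mucins tested were MUC5B, at 0.16, 0.152 and 0.0883 CPM against 0.25, 0.542 and 0.262 CPM, and MUC15, at 0.48, 0.682 and 0.633 CPM against 0.4, 0.339 and 0.0749 CPM, both under 1 CPM in every library. Their log2 fold changes of 1.41 and -1.18 passed the adjusted p (0.0334 and 0.0469) but lost it when single libraries were left out. MUC5B had 1.15 without the third untransduced library and 0.958 without the second vehicle library, and MUC15 had -1.15 without the third untransduced and -0.693 without the third vehicle library.

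Several processed pseudogenes differed by large factors. EEF1A1P5, a copy of the translation elongation factor gene EEF1A1, had 12110 to 21636 counts in the untransduced libraries, 107746 to 135527 with vehicle and 70985 to 134690 after DOX in the same line. EEF1A1 itself averaged 9050 CPM untransduced and 8580 CPM with vehicle (log2 fold change -0.08, adjusted p = 0.145). RPL19P5 had 160 to 368 counts untransduced, 0 in each vehicle library and 0 to 2 after DOX, at least 59.1-fold lower with vehicle, and its parent gene RPL19 averaged 937 CPM against 261 CPM (-1.85, adjusted p = 2.04e-13). In the remaining conditions RPL19P5 had 36 to 294 counts and EEF1A1P5 had 7934 to 24747. Of 10 genes that were at 3 counts or fewer in each vehicle library and at 50 or more in each untransduced one, 7 were processed pseudogenes and none was protein-coding. Reads of such copies can be assigned to either locus, so their values are uncertain, and how much of the difference lies in the assignment was not tested.

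Noncoding RNAs had the largest falls. RN7SKP80 was at 2010, 1850 and 2660 CPM untransduced and 4.4, 3.37 and 3.15 CPM with vehicle (log2 fold change -9.24, standard error 0.15, adjusted p = 5.51e-16), and it had -0.32 in vehicle-treated tet-MYCshRNA against untransduced mammospheres. The mitochondrial 12S ribosomal RNA MT-RNR1 was at 164, 232 and 162 CPM against 4.82, 5.83 and 3.65 CPM (-5.30, standard error 0.16, adjusted p = 1.31e-13). For MT-RNR1 the vehicle-treated tet-MYCshRNA libraries gave -5.26 against the same untransduced libraries. The 5.8S ribosomal RNA genes RNA5-8SN3 and RNA5-8SN2 averaged 310- to 364-fold less with vehicle. In the other direction SNORD3A, the U3 small nucleolar RNA that guides ribosomal RNA cleavage, was at 2.58, 2.33 and 3.8 CPM untransduced and 71.4, 69.4 and 66 CPM with vehicle (4.55, standard error 0.12, adjusted p = 3.96e-14). RPL9P7 (5.74), RPS28P7 (4.33) and RPL13AP5 (4.22) were the other rises, and NPM1P24 (-4.74), RPL35P1 (-5.39), RPL23AP57 (-5.66), RPL36AP7 (at least 100-fold lower) and RPS20P10 (at least 101-fold lower) the other falls that the rule named when all gene kinds were eligible, and all 8 are pseudogenes of ribosomal or nucleolar proteins.

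Differences were spread over the genome with a few local shifts. Median log2 fold changes of protein-coding genes by chromosome lay between -0.17 on chromosome 16 and 0.219 on chromosome 22. Of 355 runs of 50 neighbouring tested genes, 17 had a median above 0.3 and 9 below -0.3. The highest was on chromosome 4 from 15004942 to 39182258, with a median of 0.53, 30 genes higher and 3 lower by adjusted p, and the next run there, to 49508806, had 0.389. The lowest was on chromosome 19 from 19870723 to 23945159, between BNIP3P10 and ZNF726 in a zinc-finger gene cluster, with a median of -0.529, 4 genes higher and 24 lower. The main histone cluster on chromosome 6 fell into 2 runs, with medians of -0.243 from 17706094 to 26189112 and -0.443 from 26198784 to 28137313. Copy number was not measured.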

How the data were processed

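The authors deposited raw read counts, 1 whole number per gene and library, with no normalization. Per the labels and the study's methods, RNA was prepared as TruSeq Stranded mRNA libraries, aligned to GRCh38 with STAR and counted with featureCounts. The submitters' processing notes name CASAVA 1.8.2, STAR 2.7.3a and DESeq2. The strand setting, the annotation and how reads with several alignments were treated are not given in the sources used here. Between 60.6% and 64.9% of genes with 5 to 200 counts had an even count in the 6 libraries (60.3% to 65.6% in all 21). Whether both mates of a pair were counted is not stated. The table has no value for 6498 genes in the untransduced and 4952 in the vehicle libraries, read as 0, so the 2 groups come from different blocks of that file, and line and block cannot be told apart. Of 42339 genes, 42252 matched GENCODE release 44, which gave symbols and positions. All columns of per-sample values were mapped by their names.

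In R 4.3.3, the 6 libraries were filtered with filterByExpr, scaled by TMM factors and fitted with edgeR 4.0.16's quasi-likelihood test, with Benjamini-Hochberg adjustment over 18409 genes. The standard error is the log2 fold change divided by the square root of F. Replicates differed by more than sampling noise (chi-square per degree of freedom 6.24 to 15.3 over 6 pairs), and the biological coefficient of variation was 0.0796. Each chi-square is a single value over many genes, which abundant genes can carry, so it does not show how many genes exceed counting error. CPM values were scaled over the 6 libraries, or over 21 where stated, except the marker sums, which used unscaled library totals. Lists were described by counts and medians, with no set test.

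The comparison and the gene lists were chosen with earlier results of these data known. Named were MUC1 and MYC, the 12 largest rises and falls among called genes with groups not overlapping and a mean normalized count of at least 100, up to 4 members of each list by smallest p, and called list members. The same rule over protein-coding genes was added after the data were seen. Other genes of a list are named to describe it. Some genes that the rule named are not reported here. Promoter sequences are from RefSeq (GRCh38.p14). HLA-F, MUC4, MUC6 and SOD2 were not analysed here.

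On simulated counts for these 6 libraries, with 18409 genes of which 200 were changed by a log2 of 2, the test called 92% of the changed genes and 4 unchanged ones. By adjusted p alone, 27 unchanged genes passed. In the data 11516 genes passed the adjusted p, far more than were changed in the simulation, so its rates may not carry over. Alternatives were DESeq2 1.42.0, RLE factors, scaling by library size, scaling that leaves out mtDNA genes, no filter, a minimum of 10 counts in every library, leaving out genes with no value in a block, all 21 libraries in a single fit, the replicate block, other thresholds, and leaving out each library. A fit of protein-coding genes alone was added after the data were seen. The data.table package, version 1.17.8, handled the tables.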

Additional observations from a re-analysis of the deposited data

How the results depend on the processing

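MUC1 and MYC stayed lower and past the adjusted p in each alternative fit, though short of the log2 threshold of 1.5, at -1.31 to -1.145 and -1.317 to -1.227 on the log2 scale, which are also their ranges with single libraries left out. The number of genes called depended on the filter and the fold threshold. Against 1578 called, no filter beyond 1 count gave 2419 (1201 lower), and at least 10 counts in every library gave 801 (448 higher, 353 lower), with fewer genes tested. Calling at a linear fold of 1.5 gave 5995 (3103 higher, 2892 lower). Protein-coding genes alone, added after the data were seen, gave 803 (483 higher, 320 lower), 60.1% of them higher against 52.8% over all genes. Leaving out single libraries gave 1847 to 1964 called (926 to 1083 higher, 814 to 955 lower) and 10695 to 11279 past the adjusted p, over more genes tested. DESeq2 called 1575, of which 1554 were shared.

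Same-numbered libraries did not deviate together (correlations of 0.039, 0.044 and -0.012). With 3 libraries per group, these values do not settle whether the numbers pair the cultures. A fit with the number as a replicate block called 1602 genes, 1567 of them shared. List medians kept their sign in all fits for DNA replication (-0.624 to -0.566), mitosis (-0.388 to -0.275), histones (-0.796 to -0.56), the ATF4 list (0.407 to 0.484), cholesterol (0.238 to 0.337) and EMT factors (0.533 to 0.633), whereas medians near 0 changed sign for the interferon list (-0.123 to 0.013), the MYC network (-0.02 to 0.064), the nuclear electron transport genes (-0.085 to 0.05) and the contractile and YAP list (-0.041 to 0.034). So did those of the luminal (4 tested) and leukocyte (1 tested) markers, and the mucin, epithelial and endothelial medians did so in fits that tested more members. The matrix median was 0.166 to 0.348, that of mtDNA-encoded genes -0.155 to -0.012 and that of stem-like markers -0.248 to -0.067. Of the 3 epithelial markers tested, KRT8 was called lower (-3.42), and ESRP1 and CLDN4, both at most 1.14 CPM in these libraries, were higher by adjusted p (0.76 for CLDN4). Both lost it without untransduced library 2, at 0.917 and 0.604, and without other single libraries (untransduced 1 and vehicle 2 for ESRP1, untransduced 3 and vehicle 3 for CLDN4). Depth limits genes under 1 CPM, where single libraries can decide a call.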

Other observations

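The genes of the cytosolic ribosome itself, a list chosen after the values were seen, were unevenly lower in the vehicle libraries. Of 76 ribosomal protein genes, 50 fell and 15 rose by adjusted p, against 30.7% and 31.8% of all genes, and the median log2 fold change was -0.405. Values ran from -2.07 to 0.87, with quartiles of -0.826 and -0.059. RPL35, a protein of the large subunit, was at 589, 510 and 588 CPM untransduced and 144, 131 and 126 CPM with vehicle (-2.07, standard error 0.07, adjusted p = 2.56e-13 in edgeR's quasi-likelihood test). RPLP2, an acidic protein of the ribosomal stalk, was at 74.3, 56.9 and 59.1 CPM against 22.9, 21.4 and 18.3 CPM (-1.61, adjusted p = 6.32e-10). RPL19, RPL21, RPL39 and RPL36 were the other genes called. The other contrasts of the series had 0 called among the same 76 genes. The quartiles were -0.401 and -0.061 for vehicle-treated tet-MYCshRNA and -0.253 and -0.119 for GO-203-treated against untransduced mammospheres, and 0.323 and 0.597 for untransduced mammospheres against 2D cells. These 3 contrasts share the untransduced libraries with the values above. They were -0.646 and -0.317 for DOX against vehicle in the tet-MUC1shRNA line, which share the vehicle libraries, and -0.57 and -0.301 in the tet-MYCshRNA line.

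Ribosomal protein genes have many near-identical processed pseudogenes, to which their reads can also be assigned. When each gene was summed with the tested pseudogenes named after it, which existed for 64 of the 76, the median log2 ratio was -0.3995. Of the 76, 14 were below -1 alone and 12 as sums. RPL35 had -2.10 as a sum, RPL19 -1.85 and RPL21, with 30 named pseudogenes, -1.42. For EEF1A1 the 19 tested pseudogenes summed to 741 CPM untransduced and 3130 CPM with vehicle, and the gene itself had -0.08.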
